A study of Mus musculus with 8 samples.

Results

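Plscr1, Plscr2, Plscr3, Plscr4, Ano6, Xkr8, Atp11a and Tmem30a are mouse genes for proteins that move phospholipids between the leaflets of a membrane. They were followed in skin keratinocytes of Hmgb1 knockout and control mice. Hmgb1 codes for a chromatin protein. All 8 symbols were found among the 24421 symbols of the count tables. The set brings together the Plscr paralogs with other scramblases and flippases. It was selected on results of the comparison of knockout with control, that is, with the log2 fold changes of these genes, above all of Plscr4, already known. Values of that comparison for the 8 genes are therefore given as a description, without p-values. The knockout libraries came from keratinocytes of InvEE mice with both Hmgb1 alleles floxed and with K5-Cre (genotype InvEE K5 Cre+ HMGB1 fl/fl), and the control libraries from InvEE mice with the same floxed alleles and no Cre (InvEE K5 Cre- HMGB1 fl/fl), with 4 libraries each. Both groups had the mixed CBA x C57Bl/6J background and the InvEE transgene, which drives activated MEK1 from the involucrin promoter in differentiating keratinocytes. K5-Cre acts in basal keratinocytes and their descendants, and since only the knockouts carried it, an effect of Cre cannot be told apart from that of the loss of Hmgb1. The labels used here state no age for the mice, and nothing says that each library came from a separate animal, so the spread between libraries may be partly technical.

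In a resting cell phosphatidylserine is kept on the inner leaflet of the plasma membrane. P4-ATPases such as Atp11a, each paired with a CDC50 subunit such as Tmem30a, are flippases that pump phosphatidylserine and phosphatidylethanolamine inward at the cost of ATP. Scramblases let lipids pass both ways and so expose phosphatidylserine: Ano6 (TMEM16F) opens when calcium rises, and Xkr8 after caspases cleave it in dying cells. The Plscr proteins were named for the same activity, although their part in scrambling at the cell surface is disputed, and Plscr1 is best known as a gene that interferons induce in many cell types. Exposed phosphatidylserine marks dying cells for uptake by their neighbours and by phagocytes, and keratinocytes remodel their membranes as they cornify.

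Gene totals were 30841304 to 32150134 counts in knockout libraries and 30506676 to 34229030 counts in control libraries. Hmgb1, the deleted gene, was at 113.4, 118.7, 126.2 and 114.1 CPM (counts scaled to a common library size, with TMM factors) in knockout replicates 1 to 4, against 565.5, 599.3, 585.5 and 615.0 CPM in control replicates 1 to 4. On average the knockouts held 19.97% of the control level of Hmgb1, so some of its transcript remained. The labelled cell type was checked on 6 basal keratinocyte genes. They summed to 47056 to 56430 CPM in knockouts and 47139 to 54024 CPM in controls. Y-linked transcripts reached 1000 counts, the threshold used for their presence, in knockout replicate 1 (6743 counts) and in control replicates 2 and 3 (6380 and 6110 counts), and were at 6 to 51 counts in the other knockouts and 0 to 2 in the other controls, so the sexes were unevenly spread over the groups. Across 13016 genes tested by edgeR, 8.87% were called at an adjusted p under 0.05, 4.33% higher and 4.54% lower in the knockout, and the groups did not overlap for 17% of genes.

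Of the 8 genes, 6 had enough counts to be tested and 2 of those, Plscr4 and Xkr8, were among the genes called lower, beside the 8.87% of all tested genes called. Plscr3, Ano6, Atp11a and Tmem30a were not called. Plscr1 fell below the filter on low counts (about 10 counts, or 0.319 CPM, in 4 libraries), and Plscr2 had no counts at all. The groups did not overlap for Plscr1, Plscr4, Ano6 and Xkr8, beside 17% of all tested genes. They overlapped for the other 4, of which Plscr2 was at 0 in every library. Since the genes were chosen with this comparison known, nothing is read from these counts.

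Plscr4 encodes a membrane-anchored protein of the phospholipid scramblase family. It was at 0.644, 0.786, 0.453 and 0.189 CPM in knockout replicates 1 to 4, against 6.59, 10.8, 10.6 and 6.19 CPM in control replicates 1 to 4. These values rest on 18, 24, 14 and 6 counts in the knockouts and on 236, 337, 343 and 212 counts in the controls. Every knockout library lay far below every control library. The means were 0.518 ± 0.258 CPM in knockouts and 8.53 ± 2.48 CPM in controls (SD, n = 4 each), so the knockouts held 6.07% of the control level, and the log2 fold change was -4.04 (SE 0.37). Plscr4 passed the filter on low counts through its control libraries. Of the 13016 tested genes, 0.023% had a log2 fold change at or below that of Plscr4, counting Plscr4 itself. The others were the pyrimidine-degrading dehydrogenase Dpyd (log2 -4.50) and the keratin Krt6b (log2 -4.18). Dpyd was at only 0.0749 CPM in knockouts on average, and Krt6b at 2.50 CPM. Because Plscr4 was chosen with this value known, its rank is a description and no measure of rarity. The 2 control libraries with the higher Plscr4, replicates 2 and 3, were those with Y-linked transcripts. Among libraries under that threshold, the values were 0.786, 0.453 and 0.189 CPM in knockouts and 6.59 and 6.19 CPM in controls, and the log2 fold change in a fit to those 5 libraries was -3.74. With a term for Y-linked transcripts in all 8 libraries it was -3.84.

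**Figure D1:**
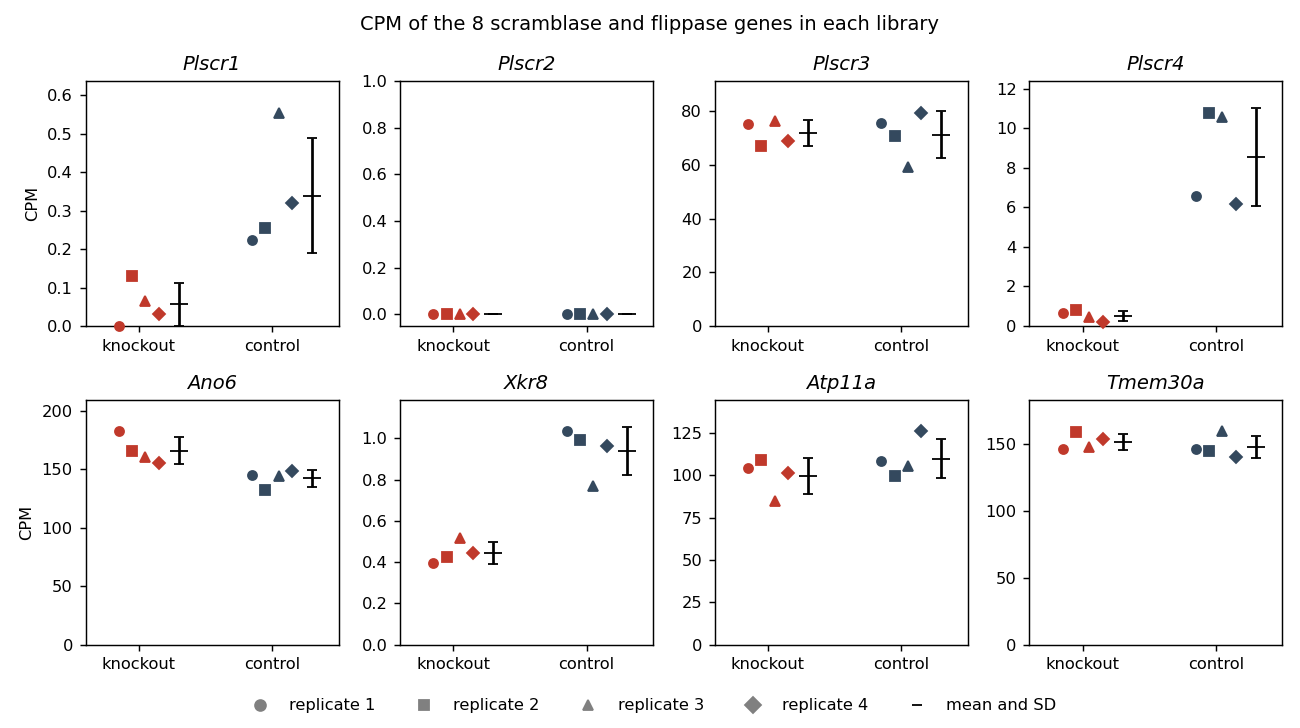
CPM (vertical axes, each with its own linear scale) of the 8 genes in the 4 knockout libraries (left, red) and the 4 control libraries (right, blue). Points are libraries, and bars give the mean and SD. The knockout libraries of Plscr4 sit between 0.189 and 0.786 CPM and the control libraries between 6.19 and 10.8 CPM, while the groups mix for Plscr3, Atp11a and Tmem30a.

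The sequence just upstream of Plscr4 is shown because Plscr4 had the lowest fold change of the tested genes of the set. Plscr4 lies on chromosome 9 of mm10 (92457373 to 92492456, plus strand, GENCODE vM21), and the 244 bases before its annotated start were read from RefSeq's promoters on GRCm38.p6, a patch release of the same assembly. The sequence runs 5′ to 3′ on the plus strand.
Plscr4, chr9:92457128-92457371: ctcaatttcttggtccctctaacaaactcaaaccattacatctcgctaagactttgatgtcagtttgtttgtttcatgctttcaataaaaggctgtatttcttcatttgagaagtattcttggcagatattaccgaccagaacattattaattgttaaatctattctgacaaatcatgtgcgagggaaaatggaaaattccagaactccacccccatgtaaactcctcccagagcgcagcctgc

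Plscr1, which codes for the founding member of the family, was close to the limit of detection in every library. It had 0, 4, 2 and 1 counts in knockout replicates 1 to 4, against 8, 8, 18 and 11 counts in control replicates 1 to 4. On the CPM scale that was 0, 0.131, 0.0647 and 0.0316 in knockouts and 0.223, 0.256, 0.554 and 0.321 in controls. A floor of 3 counts corresponds to 0.0947 to 0.107 CPM in single knockout libraries and 0.0838 to 0.0959 CPM in single control libraries, so 3 of the 4 knockout libraries were below it and no control library was. Summed over libraries there were 7 counts in knockouts and 45 in controls, a ratio of 0.172 of knockout to control at equal depth (exact 95% interval 0.0654 to 0.384, which covers counting error only). Without the filter on low counts the fitted log2 fold change was -2.46 (SE 0.66). The lower counts lay in the knockout for Plscr1 and for Plscr4. The annotation used for counting is not stated, so whether all exons of Plscr1 were counted is not known. The counts are read between groups here, and the level of Plscr1 per exon length, given below, carries this limit. On summed counts the log2 ratios of knockout to control were -2.54 for Plscr1 and -4.04 for Plscr4, a difference of 1.501 with a counting error of 0.62 (1 SE). That difference was 0.98 without knockout replicate 2, which holds 4 of the 7 knockout counts of Plscr1, and 2.00 without knockout replicate 1.

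The interferon-stimulated genes moved the other way. Of 32 tested members of that list 21 were called higher and 0 lower by edgeR, beside 4.33% higher and 4.54% lower among all tested genes. The median log2 fold change of the list was 1.86 beside -0.02 over all tested genes. At an unadjusted p under 0.05, 31 were higher and 0 lower, beside 3412 of all 13016 tested genes, 1723 of them lower. Mx2, an interferon-induced GTPase, had a log2 fold change of 2.40 (SE 0.40), Irf9, a DNA-binding protein that carries interferon signals, 1.34 (SE 0.26), and Oas1g, which synthesises oligoadenylates, 1.88 (SE 0.38). The mean log2 CPM of the list was 4.11, 4.96, 5.88 and 4.98 in knockout replicates 1 to 4, against 2.70, 3.86, 2.69 and 3.76 in control replicates 1 to 4. Beside these means, the counts of Plscr1 were 0, 4, 2 and 1 in knockout replicates 1 to 4, and 8, 8, 18 and 11 in control replicates 1 to 4. They are too few to be compared between single libraries. The part of the interferon-stimulated genes in the levels of Plscr1 and Plscr4 was not tested. The count of called members was sensitive to single libraries: it was 1 without knockout replicate 2, 6 without knockout replicate 4, 11 without knockout replicate 3, 4 without control replicate 1, 5 without control replicate 3, 10 without control replicate 2 and 10 without control replicate 4. Without knockout replicate 1 it rose to 27, and the highest count over all alternatives was 29. The count was 7 with a term for Y-linked transcripts and 8 among libraries without them.

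**Figure D2:**
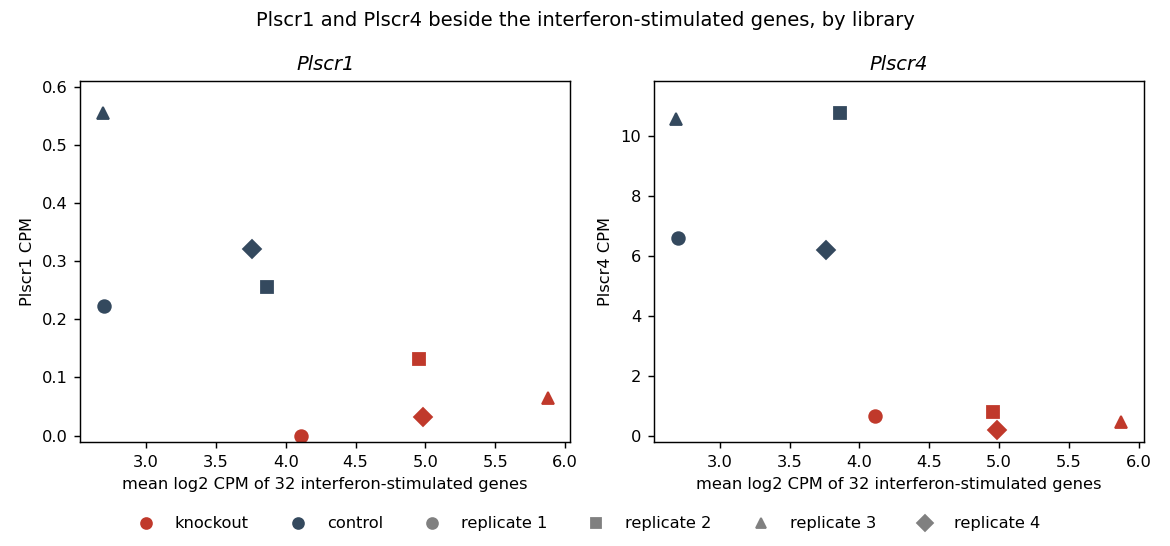
CPM of Plscr1 (left) and Plscr4 (right) against the mean log2 CPM of 32 interferon-stimulated genes, 1 point a library, knockout in red and control in blue, with symbols for replicates. All 4 knockout libraries lie to the right of the controls, at 4.11 to 5.88 on the interferon axis, and below them on both vertical axes.

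Plscr2 and the further paralog Plscr5 had 0 counts in all 8 libraries. At the summed depth of the 8 libraries, 3 counts correspond to 0.0118 CPM, the level up to which a count of 0 allows Plscr2 to be present. Plscr1 (92249750 to 92272278) and Plscr2 (92275602 to 92297752) lie next to each other on chromosome 9, on the same strand as Plscr4. Shared sequence touched only a part of Plscr1: 13.2% of the 50-base words of its longest transcript also occurred in the transcript of another gene, the processed pseudogene Gm5530, and none of the words of Plscr2 or Plscr4 did.

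Plscr3, the paralog found at mitochondria, was by far the most abundant of the Plscr genes. It was at 75.4, 66.9, 76.3 and 68.8 CPM in knockout replicates 1 to 4, against 75.6, 70.9, 59.2 and 79.3 CPM in control replicates 1 to 4. The knockout values lay inside the control range, with a log2 fold change of 0.01 (SE 0.10) whose sign turned with library totals in place of TMM. Of its exon bases 28.3% are shared with Tnk1 on the opposite strand. How reads of this stretch were assigned is not known, since the use of strand in counting is not stated. They may have been left out as ambiguous.

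Ano6 codes for the calcium-activated scramblase of the plasma membrane. It was at 182.5, 165.6, 160.9 and 155.7 CPM in knockout replicates 1 to 4, against 145.3, 132.2, 144.0 and 148.8 CPM in control replicates 1 to 4. Each knockout library was above each control library, by a small margin. The means were 166 ± 11.6 CPM in knockouts and 143 ± 7.21 CPM in controls (SD, n = 4 each), and the log2 fold change of 0.22 (SE 0.08) was not past the threshold. With library totals only, a scaling that moves the median of all genes to -0.13, it was 0.11.

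Xkr8, the scramblase that caspases switch on during apoptosis, was a low-level transcript. It was at 0.394, 0.426, 0.517 and 0.442 CPM in knockout replicates 1 to 4, against 1.03, 0.991, 0.770 and 0.964 CPM in control replicates 1 to 4. All knockout libraries were below all controls, on 11 to 16 counts in knockouts and 25 to 37 counts in controls. The means were 0.445 ± 0.0524 CPM in knockouts and 0.939 ± 0.116 CPM in controls (SD, n = 4 each), and the log2 fold change was -1.07 (SE 0.25). The fold change hardly moved when single libraries were left out, from -1.15 to -1.01, but the call was lost without knockout replicates 1, 2 or 4 and without control replicates 1, 2 or 4. It was also lost in the fit to the 5 libraries without Y-linked transcripts (log2 -1.11).

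Atp11a, the flippase, was at 104.2, 109.2, 84.7 and 101.3 CPM in knockout replicates 1 to 4, against 108.5, 99.6, 105.5 and 125.9 CPM in control replicates 1 to 4. The groups overlapped, and the log2 fold change was -0.14 (SE 0.10). Tmem30a, the subunit that P4-ATPases need to leave the endoplasmic reticulum, was at 146.5, 159.2, 148.0 and 154.3 CPM in knockout replicates 1 to 4, against 146.4, 145.3, 159.7 and 140.3 CPM in control replicates 1 to 4. Its log2 fold change was 0.04 (SE 0.08), with -0.07 under library totals only. Neither gene was called.

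Divided by the length of their exons (the union of GENCODE exons), the genes spanned a wide range of levels. The annotation used for counting is not stated, so the bases counted may differ from these lengths, for Plscr1 among others. The length of Plscr3 includes the bases shared with Tnk1. In knockouts Tmem30a led with 26.9 ± 1.04 CPM per kilobase, followed by Plscr3 with 22.8 ± 1.496, Ano6 with 13.5 ± 0.947 and Atp11a with 8.96 ± 0.950 (SD, n = 4 each). Far below came Plscr4 with 0.144 ± 0.0719, Xkr8 with 0.103 ± 0.0122 and Plscr1 with 0.0231 ± 0.0228 CPM per kilobase. In controls the order was the same, with 26.2 ± 1.47 for Tmem30a, 22.6 ± 2.77 for Plscr3, 11.6 ± 0.588 for Ano6, 9.86 ± 1.01 for Atp11a, 2.38 ± 0.690 for Plscr4, 0.218 ± 0.0270 for Xkr8 and 0.138 ± 0.0607 CPM per kilobase for Plscr1. Neighbours in this order whose library ranges overlapped were Plscr4 and Xkr8, and Plscr1 and Plscr2, in knockouts. In controls they were Tmem30a and Plscr3, Ano6 and Atp11a, and Xkr8 and Plscr1. Plscr4 was thus clear of Xkr8 in controls and not in knockouts. Divided by the longest transcript instead, Ano6 stood above Plscr3, at 33.7 ± 2.36 and 25.8 ± 1.69 CPM per kilobase in knockouts and at 28.9 ± 1.46 and 25.6 ± 3.13 in controls. The library ranges of Ano6 and Plscr3 then overlapped in controls and not in knockouts.

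**Figure D3:**
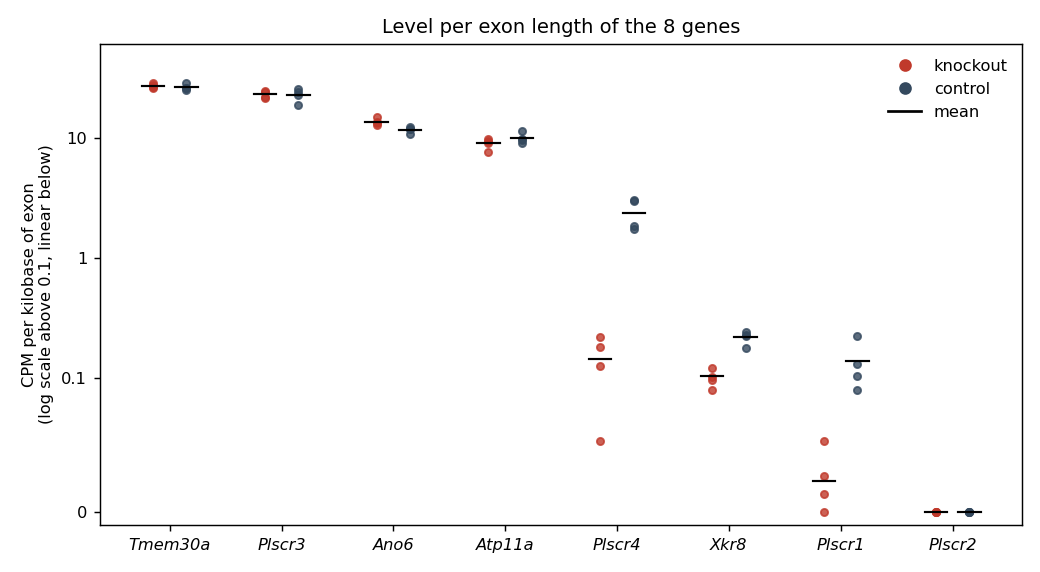
CPM per kilobase of exon (vertical axis, logarithmic above 0.1 and linear below) of the 8 genes, ordered by their control mean, with knockout libraries in red to the left and control libraries in blue to the right; lines are means. Tmem30a, Plscr3, Ano6 and Atp11a lie between 7.60 and 28.3 in all libraries, and Plscr4 drops to 0.144 in knockouts, against 2.38 in controls.

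Around the 8 genes, 67 other genes of phospholipid transport, synthesis and recognition were listed by family, and 48 of them had enough counts to be tested. Of the 48, 6 were called higher in the knockout, 0 were called lower by edgeR and 42 did not pass, beside 4.33% higher and 4.54% lower among all tested genes. Their median log2 fold change was 0.17, beside -0.02 over all tested genes. At an unadjusted p under 0.05, 19 of the 48 lay past the threshold, 3 of them lower, beside 3412 of all 13016 tested genes, 1723 of them lower. DESeq2 called 11 higher and 2 lower, and limma-voom 6 higher and 0 lower. The count of genes called higher was 1 without knockout replicate 2, 2 without control replicate 2, and 3 without knockout replicate 1, without knockout replicate 4 or without control replicate 3.

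The endomembrane scramblases held 3 of these 6 among 7 tested members, beside 4.33% of all tested genes called higher. That count was 1 to 2 in the fits that left out 1 library. Atg9b, a scramblase of the autophagy machinery, rose to 8.83 ± 1.99 CPM in knockouts, against 1.39 ± 0.819 CPM in controls (SD, n = 4 each; log2 2.66, SE 0.36, adjusted p = 0.004535 by edgeR), and its call was kept whichever of the 8 libraries was left out. Vmp1, a scramblase of the endoplasmic reticulum that acts in autophagosome formation, rose to 129 ± 28.3 CPM in knockouts, against 73.0 ± 21.5 CPM in controls (log2 0.82, SE 0.22, edgeR adjusted p = 0.04666). Tmem41b, a scramblase related to Vmp1, rose to 80.7 ± 8.49 CPM in knockouts, against 59.4 ± 5.72 CPM in controls (log2 0.44, SE 0.10, edgeR adjusted p = 0.0252). Of the 8 fits that left out 1 library, Vmp1 kept its call in 1 (without control replicate 3) and Tmem41b in 4. Tmem41b lost it without knockout replicates 1 or 2 and without control replicates 3 or 4. Vmp1 also lost its call with library totals only, with no filter on low counts and with a block for replicate number. The other 4, Atg9a, Clptm1l, Tmem63a and Tmem63b, did not pass.

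Among 5 tested relatives of Ano6 in the TMEM16 family, Ano10, an endomembrane member, rose to 21.9 ± 3.55 CPM in knockouts, against 14.5 ± 3.02 CPM in controls (SD, n = 4 each, log2 0.60, SE 0.16, edgeR adjusted p = 0.0471). That call remained only without knockout replicate 3 or without control replicate 4 among the 8 fits that left out 1 library. Ano1, Ano7, Ano8 and Ano9 did not pass. Of 8 listed ABC transporters that export lipids or other compounds, 6 were tested and Abcc1 rose, to 283 ± 27.0 CPM in knockouts, against 205 ± 14.5 CPM in controls (log2 0.47, SE 0.10, edgeR adjusted p = 0.01745). Its call was lost without knockout replicate 2 and without control replicate 2. Of 9 tested genes for phosphatidylserine recognition, Tyro3, a receptor kinase that meets phosphatidylserine through Gas6 or protein S, rose to 124 ± 9.08 CPM in knockouts, against 84.8 ± 17.2 CPM in controls (log2 0.55, SE 0.13, edgeR adjusted p = 0.02763). Its call was kept only without knockout replicate 3 or without control replicate 4 among those 8 fits.

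The other P4-ATPases and subunits, the relatives of Atp11a and Tmem30a, gave no call: of 12 tested members, 0 passed in edgeR or limma-voom and 4 in DESeq2, while 4 lay under an unadjusted p of 0.05, from which nothing is read beside 3412 of 13016 over all tested genes. In edgeR 2 passed without knockout replicate 3, and 1 each without knockout replicate 1 and without control replicate 4. Atp11b, the most abundant of them by CPM and a close relative of Atp11a, was at 188 ± 33.9 CPM in knockouts and 138 ± 8.31 CPM in controls (SD, n = 4 each, log2 0.45, SE 0.13, edgeR adjusted p = 0.05355). Atp8b2 was at 125 ± 15.8 CPM in knockouts and 117 ± 8.73 CPM in controls. Among 6 tested relatives and partners of Xkr8, 0 passed in edgeR, DESeq2 or limma-voom, and 1, Bsg, lay under an unadjusted p of 0.05. Bsg, the chaperone that takes Xkr8 to the cell surface, was at 288 ± 26.7 CPM in knockouts and 249 ± 14.2 CPM in controls, and its homolog Nptn was at 164 ± 2.40 CPM in knockouts and 156 ± 4.77 CPM in controls. Of 3 tested genes for phosphatidylserine synthesis or conversion, 0 passed in any of those 3 tools, and 1, Ptdss1, lay under an unadjusted p of 0.05. Ptdss1, a phosphatidylserine synthase, was at 68.0 ± 1.095 CPM in knockouts and 59.6 ± 3.76 CPM in controls, and Pisd, which turns phosphatidylserine into phosphatidylethanolamine, at 63.1 ± 6.40 CPM in knockouts and 55.4 ± 4.81 CPM in controls.

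**Figure D4:**
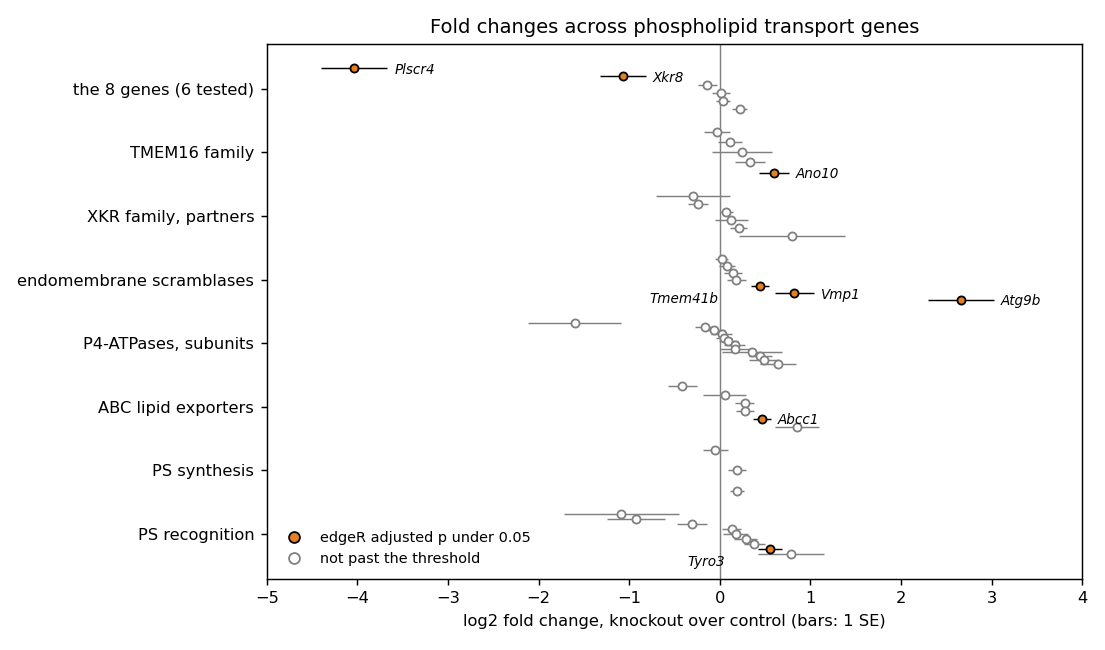
Log2 fold change of knockout over control with 1 SE for the 6 tested genes of the set and the 48 tested genes of 7 related lists (PS, phosphatidylserine). Filled points are past an edgeR adjusted p of 0.05. Plscr4 at -4.04 and Xkr8 at -1.07 are the filled points left of 0, and Atg9b at 2.66 lies farthest to the right.

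On chromosome 9, the RefSeq start of Plscr4 lies 207 kb from that of Plscr1, and of 20 RefSeq genes within 500 kb of either, 10 were in the count tables and 2 had enough counts to be tested. These were Plscr4 itself and Plod2, a lysyl hydroxylase whose start lies 82.3 kb beyond that of Plscr4. Plod2 was at 0.951 CPM in knockouts and 1.65 CPM in controls on average, which was not called (log2 -0.79, SE 0.31, adjusted p = 0.1296 by edgeR).

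Markers of other cells were read beside Plscr4, since in bulk samples fewer cells of a type and less RNA per cell cannot be told apart. The 7 hair follicle genes listed summed to 270.0 to 304 CPM in knockouts and 446 to 525 CPM in controls. Of them 3 were called lower, Lgr5 (log2 -2.09), Lrig1 (log2 -0.76) and Lgr6 (log2 -0.69), and 0 higher. Among all tested genes 4.54% were called lower and 4.33% higher. None of the 7 hair follicle genes was at 0 on average, and their part in the fall of Plscr4 was not tested. Suprabasal keratinocyte genes summed to 13040 to 16589 CPM in knockouts and 7435 to 12134 CPM in controls. Of 5 tested members 2 were called higher, Krt10 and Sbsn, beside the 4.33% of all tested genes. That count was 1 without knockout replicate 2 or without control replicate 2, and 0 among libraries without Y-linked transcripts. The part of the suprabasal genes in the fall of Plscr4 was likewise not tested. Sums over the other lists were low or overlapped: 0.189 to 0.808 CPM in knockouts and 0.447 to 1.94 CPM in controls for endothelial genes, 16.5 to 40.5 and 18.6 to 49.7 CPM for immune genes, 3.37 to 4.66 and 3.21 to 4.41 CPM for melanocyte genes, and 0.0647 to 0.196 and 0.0292 to 0.246 CPM for muscle genes, with Des at 0 in all libraries. Schwann cell genes summed to 0.884 to 1.196 CPM in knockouts and 1.198 to 1.81 CPM in controls. Fibroblast genes summed to 249.6 to 360 CPM in knockouts and 178 to 255 CPM in controls, most of it Thy1. Of 5 tested members 1 was called higher, beside 4.33% of all tested genes. This was Dcn, at 1.92 CPM in knockouts and 0.663 CPM in controls. The other 4 were not called: Thy1 (log2 0.42), Col1a1 (log2 0.24), Col3a1 (log2 0.10) and Col1a2 (log2 -0.44).

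Within genotypes, the genes whose library-to-library pattern was most like that of Plscr4 were Pck2 (Pearson's r = 0.960), Ube2b (r = 0.954), Mpdu1 (r = 0.950), Bzw1 (r = 0.941) and Ctps2 (r = 0.924). The measure was the correlation of log2 CPM centred on the mean of each genotype, over 8 libraries and 11223 genes with a mean of at least 2 CPM in a group. None of these 5 was called, so they shared with Plscr4 the spread among libraries and not the difference between genotypes. Plscr4 had only 6 to 24 counts a library in knockouts, so counting error enters its pattern too. For Plscr1, the 5 were Acads (r = 0.985), Ppp1r21 (r = 0.952), Osbpl2 (r = 0.943), Zmat3 (r = 0.933) and Nanos1 (r = 0.930), none of them called, and with 0 to 18 counts a library this pattern is mostly counting error. With so many genes and 8 libraries, high values arise among unrelated genes, and they are given as a description.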

How the data were processed

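Bulk RNA was sequenced from keratinocytes in 4 knockout and 4 control libraries, grouped by sample title. The deposited values are whole-number counts per gene symbol, not normalized. The submitters' processing notes name TopHat2 2.1.0, Trimmomatic 0.35, SAMtools 0.1.18 and FastQC 0.11.4, with mm10 as the build. What counted the reads, on which annotation and with which strand setting is not given in the sources used here. Lines for reads outside genes (15.7 to 21.7% of a file's total) and ambiguous reads (0.918 to 1.11%) were left out.

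Genes were filtered with filterByExpr and scaled by TMM, and edgeR's quasi-likelihood test (edgeR 4.0.16, R 4.3.3, robust dispersion, genotype as the only term) was run on 13016 genes with Benjamini-Hochberg adjustment and a threshold of 0.05. The step was tested on simulated data. CPM use TMM-scaled library sizes, and floors of 3 counts and intervals cover counting error only. Lengths, overlaps and shared 50-base words come from GENCODE vM21 (GRCm38), the promoter sequence and neighbours from RefSeq GRCm38.p6. Searches of promoters for motifs are not reported here. Alternatives were DESeq2 1.42.0, limma-voom (limma 3.58.1), other scalings and filters, a replicate block, a term for Y-linked transcripts and leaving out each library. The fit without Y-linked libraries and the longest-transcript length were added after seeing the data.

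The 8 genes, the lists and the tests were chosen with earlier results of these data known. The rule for named genes took the 8 genes and Hmgb1, up to 4 called members of each pathway list by adjusted p (or the 2 most abundant where none was called), the 5 genes most like Plscr1 and Plscr4, and called neighbours. Dpyd, Krt6b, Plod2, marker genes and uncalled list members were named outside it, after their values were seen.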

Additional observations from a re-analysis of the deposited data

How the results depend on the processing

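Plscr4 kept its direction and its call in all 17 alternatives, with log2 fold changes of -4.32 to -3.74. These fits reuse the libraries on which Plscr4 was chosen, so they describe the dependence on processing and give no further support. Ano6 (0.11 to 0.26), Atp11a (-0.25 to -0.07) and Tmem30a stayed uncalled in all 17, but Tmem30a turned to -0.069 with library totals only. Plscr3, near 0 throughout, turned to -0.094 with library totals only, to -0.0082 with a term for Y-linked transcripts and to -0.13 in the libraries without Y-linked transcripts, and it ran from -0.067 to 0.068 leaving out 1 library. Xkr8 lost its call with no filter on low counts (-1.06), with the replicate block (-1.07) and without the Y-linked libraries (-1.11). Leaving out 1 library, it ran from -1.15 to -1.01. It was not among the genes tested at 1 CPM in 4 libraries. The count of the 8 genes called was 1 under that filter, with the replicate block and without the Y-linked libraries, and 1 to 2 leaving out 1 library. With no filter on low counts it stayed at 2, but as Plscr4 and Plscr1.

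Genes called over the whole table were 563 higher and 591 lower. They were 370 and 997 with library totals only, 1093 and 917 with DESeq2, 375 and 348 with the replicate block, 141 and 242 without the Y-linked libraries, and 200 to 678 and 262 to 569 leaving out 1 library. Of the related lipid transport genes, 11 were called higher and 2 lower with DESeq2, 3 and 1 without the Y-linked libraries, and 1 to 7 and 0 to 1 leaving out 1 library. The difference in log2 ratio between Plscr1 and Plscr4 was 0.98 to 2.00 leaving out 1 library and 1.56 with no filter. It could not be fitted with the other filters and tools, since Plscr1 fell below them. Plscr3 minus Ano6 per kilobase turned from positive to -7.94 in knockouts and -3.35 in controls with the longest transcript. In controls the library ranges of Plscr3 and Ano6 overlapped at that length. Same-numbered libraries did not deviate together (r = -0.23 to -0.05). With 4 libraries a group this cannot settle whether the replicate numbers pair them, and the labels state no pairing. The cause of lost calls was not tested. Depth limits Plscr1, Plscr2 and Xkr8.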

Other observations

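Some further genes of the related lists were not called although the libraries of the groups did not overlap, as for 17% of all tested genes. Among them, Tmem63a (log2 0.18), Abca7 (log2 0.28) and Ptdss1 (log2 0.19) were higher in every knockout library than in every control library. Values of 3 others follow. Ano4, a TMEM16 member below the filter on low counts, was not tested, so the 17% does not cover it. It was at 0.0160 ± 0.0184 CPM in knockouts and 0.142 ± 0.0503 CPM in controls (SD, n = 4 each). Single libraries ran from 0 to 0.0323 CPM in knockouts and from 0.0924 to 0.204 CPM in controls. The knockouts were below the floor of 3 counts, and the lowest control was at it. Atp8a2, a flippase known from neurons, was at 0.301 ± 0.219 CPM in knockouts and 0.933 ± 0.359 CPM in controls, which did not pass the test (log2 -1.60, SE 0.51, adjusted p = 0.07632 by edgeR). Gas6, the bridging ligand between phosphatidylserine and Tyro3 or Axl, was at 315 ± 5.22 CPM in knockouts and 242 ± 40.8 CPM in controls (log2 0.38, SE 0.12, edgeR adjusted p = 0.06549), and all 4 knockout libraries were above the controls. All genes named here were picked after their values were seen.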
